A study of Homo sapiens with 48 samples.

Results

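Embryoid bodies (EBs), aggregates in which stem cells differentiate, were compared at 7 days with human embryonic stem cells (hESCs) that a mesoderm kit had driven to mesoderm. The libraries were chosen by their labels: all 32 EB libraries and all 4 mesoderm libraries, 36 of the 48 in the series. The question was which genes of the directed mesoderm the EBs also expressed and which they lacked.

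All cultures came from WA09 (H9), a widely used hESC line, so every value describes 1 line. EBs were aggregates grown in low-attachment wells from 20000 dissociated cells each, in Essential 6 medium. The 16 CEPT EB libraries came from cells that received the CEPT cocktail for the first 24 hours, and the 16 Y27 EB libraries from cells that received Y-27632 for the same time. CEPT is a mixture of chroman 1, emricasan, polyamines and trans-ISRIB that protects dissociated stem cells, and Y-27632 inhibits the kinase ROCK and is the customary survival aid. The mesoderm cultures spent 5 days in a commercial mesoderm induction medium whose composition the labels do not give. Beside these 4 libraries, the series holds 4 each of untreated hESCs, of ectoderm made in 6 days with 100 nM LDN-193189 plus 2 µM A83-01, which block BMP and TGF-beta receptors, and of endoderm made in 5 days with a definitive endoderm kit. EB and mesoderm cultures differed in age, medium and format together, and these cannot be told apart. The labels do not say whether libraries of a group came from separate cultures or how many EBs went into each, so p-values measure the spread between libraries, which may be technical.

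Mesoderm is the middle germ layer, formed when cells leave the epiblast through the primitive streak and turn from an epithelium into migrating mesenchyme. The streak and its posterior descendants are marked by the T-box factor T (TBXT) and by CDX2, lateral plate and extraembryonic mesoderm by HAND1 and FOXF1, and cells that respond to BMP by MSX1. SNAI2 encodes a repressor that helps cells to leave an epithelium, and it is used both by mesoderm and by the neural crest, the migrating cell population of the neural plate border.

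RASL-Seq counts ligated probe pairs for a fixed set of transcripts: 1113 probe pairs for 452 genes, of which 392 had more than 1 pair. Reads were summed per gene and are given as CPM, the reads of a library scaled to a common total with TMM factors, which adjust for differences in library composition. Reads depend on how well each probe works, so levels are compared between libraries and not between genes. EB libraries held 379810 to 5577868 reads (median 3965110.5) and mesoderm libraries 2358531 to 3482191. In these bulk lysates, fewer cells of a type and less RNA per cell cannot be told apart.

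One EB library stood apart. Y27 EB replicate 15 was the shallowest, with 379810 reads, and it was the EB library with the highest level for 19 of the 84 genes raised in mesoderm. The same count over all panel genes was not made, so this count does not set mesoderm genes apart. In 19 genes of the panel this library held at least 20 reads and at least 2 times the level of the next EB library. Among them were HAND1, HAND2, FOXF1, MYH6, TNNT2, GATA6, KDR and MSX1, genes of heart, vessel and lateral plate mesoderm, together with AFP and FABP1, genes of liver and gut. The set was mixed. SERPINB9 (7370 CPM in directed endoderm, 310 in mesoderm), PODXL (5433 and 302), FRZB, MERTK, TPM1 and SPARC averaged higher in endoderm, as did GATA6 and KDR. HAND1, FOXF1, MYH6, MSX1, CRB2 and PAMR1 averaged higher in mesoderm, and the rest were low in both. Values without Y27 EB replicate 15 are given beside the results that it moves.

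The label of the mesoderm cultures was checked against MSX1, SNAI2, HAND1 and CDX2. All were higher in the 4 mesoderm libraries than in hESCs. MSX1 was higher by 10.75 and SNAI2 by 7.78 on the log2 scale. HAND1 had no read in any hESC library, and its mesoderm mean lay at least 386-fold above the level of 3 reads per hESC library. For CDX2, also without hESC reads, mesoderm was at least 978-fold above that level. T stood at 2094, 2112, 2290 and 2110 CPM in the mesoderm libraries.

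In the EBs these markers split. SNAI2 was higher than in mesoderm, MSX1 was raised above hESCs but far under mesoderm, HAND1 was low in most libraries and high in 1, and CDX2 was near 0. A gene was called where the adjusted p-value was under 0.05 and the log2 difference at least 1.

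SNAI2 measured 580, 662, 615 and 593 CPM in the mesoderm libraries. In the EB libraries it measured 854 CPM at the lowest, 1304 at the median and 1738 at the highest. Every EB library therefore lay above every mesoderm library. The difference was 1.08 ± 0.12 (log2, SE; edgeR's quasi-likelihood test, adjusted p = 1.55e-10, 32 against 4 libraries), and all 3 probe pairs of SNAI2, tested one by one, were higher in EBs. SNAI2 was at 2.07 CPM in hESCs, 59.4 in ectoderm and 2.08 in endoderm.

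MSX1 (GRCh38.p14, chromosome 4, 4859665 to 4863936), a homeobox gene that BMP induces, measured 5956, 5473, 6211 and 5618 CPM in mesoderm. In the EBs it ranged from 14.1 over a median of 45.7 to 722 CPM. The ranges lay far apart, and the highest EB value was that of Y27 EB replicate 15, with the next at 130. The log2 difference was -6.48 ± 0.41 (adjusted p = 2.81e-17), and -6.85 ± 0.21 without that library. EBs were at the same time higher than hESCs, which averaged 2.74 CPM, by 4.68 with and 4.25 without that library.

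HAND1 (chromosome 5, 154474972 to 154478227), a basic helix-loop-helix factor of lateral plate, heart and extraembryonic mesoderm, measured 612, 573, 453 and 540 CPM in mesoderm. EB libraries ranged from 0 over a median of 14.5 to 3748 CPM. Y27 EB replicate 15 held that highest value, with 1764 reads, followed by CEPT EB replicate 16 at 390, Y27 EB replicate 2 at 186 and CEPT EB replicate 2 at 126. So 31 of the 32 EB libraries lay under every mesoderm library, and 1 lay above all of them. Over all EB libraries the difference was -2.26 ± 1.16 and missed the threshold (adjusted p = 0.0771). Without Y27 EB replicate 15 it was -3.75 ± 0.76 (adjusted p = 3.67e-05), in the CEPT EBs alone -3.36 and in the Y27 EBs alone -0.89. DESeq2 gave -4.23 and called the gene. It was run with its default settings, which replace outlying counts in groups as large as the EB arms. Whether the count of Y27 EB replicate 15 was replaced was not checked. The DESeq2 value therefore may not include that library as counted.

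CDX2 (chromosome 13, 27960918 to 27969315), a caudal-type homeobox factor of the posterior streak, the allantois, the trophoblast and the later gut, measured 1379, 1292, 1692 and 1153 CPM in mesoderm. Of the 32 EB libraries 24 had no CDX2 read, and the highest value was 29.7 CPM, from 14 reads in Y27 EB replicate 15. The next EB library stood at 1.87. CDX2 showed the lowest ratio of EBs to mesoderm among the called genes, with a log2 difference of -11.62 ± 0.61 (adjusted p = 1.29e-19), and of -12.00 without that library.

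**Figure D1:**
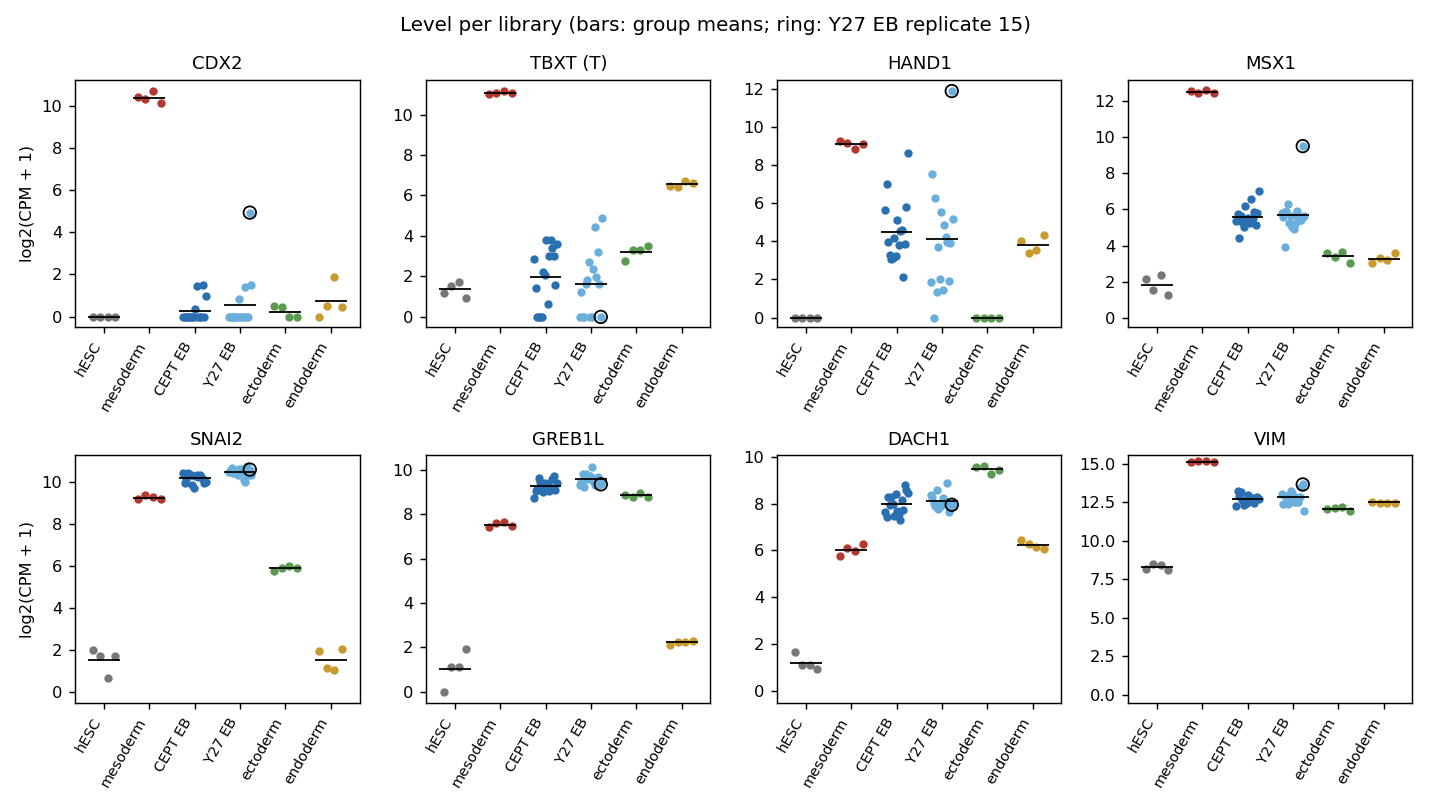
Each point is 1 library, at log2(CPM + 1) on the vertical axis, by group along the horizontal axis, for 8 genes raised in mesoderm. Bars are group means and the ring marks Y27 EB replicate 15. CDX2 and TBXT are near 0 in EBs, MSX1 and VIM lie between hESC and mesoderm, HAND1 spreads widely in EBs, and SNAI2, GREB1L and DACH1 lie above mesoderm in all 32 EB libraries.

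Across the panel, EBs and directed mesoderm differed in most genes: 255 of the 426 tested were called (59.9%), 141 of them higher in EBs (33.1%) and 114 lower (26.8%). The median log2 difference of all tested genes was 0.13. With library totals in place of TMM factors, that median moved by 0.42 and the split by direction became 174 higher and 87 lower, 66.7% higher in place of 55.3%. The CPM ranges of EBs and mesoderm did not overlap in 211 genes (49.5%).

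Genes raised in mesoderm were defined from the 16 control libraries: called higher in mesoderm than in hESCs, with a mean of at least 50 reads. The call alone held for 100 of the 387 genes tested (25.8%), and 84 passed both conditions. EBs were called higher than hESCs in 161 of 423 genes (38.1%). Of the 84 genes, EBs shared 38, meaning that they were called higher than hESCs and not called lower than mesoderm. EBs partly shared 13, which were called higher than hESCs and also lower than mesoderm. They lacked 32, which were called lower than mesoderm and not called higher than hESCs. Lacked is the name of a class and does not mean absent from EBs. The median log2 difference of the lacked genes from hESCs was -0.19. Some missed only the log2 cutoff of 1 against hESCs. Without Y27 EB replicate 15 these included BBS9 (0.69), SDC2 (0.47) and LAMB1 (0.72), each with an adjusted p under 0.05 by edgeR's quasi-likelihood test. Of the lacked genes, CDX2, COLEC10 and MYH6 had too few reads in EBs and hESCs for a test between those groups. SERPINB9 fell in no class. These genes were picked for being high in the same 4 mesoderm libraries that the EBs were set against, and the comparisons share libraries, so the class counts are descriptions.

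The median log2 difference of EBs from mesoderm was 0.12 in the shared genes, -1.83 in the partly shared and -2.90 in the lacked genes. The classes are defined by calls on this same difference, so the order of the medians is built in. The separation of ranges by class follows from it in part. Over all tested genes, the ranges did not overlap in 49.5%, counting either direction. No EB library exceeded the lowest mesoderm library in 29 of the 32 lacked genes, in 11 of the 13 partly shared genes and in 2 of the 38 shared genes, TXNIP and SPON1. All 32 EB libraries exceeded the lowest mesoderm library in 13 shared genes. Without Y27 EB replicate 15 the counts were 35 shared, 14 partly shared and 32 lacked: HAND1 became partly shared, and S100A10 and SPARC fell in no class.

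**Figure D2:**
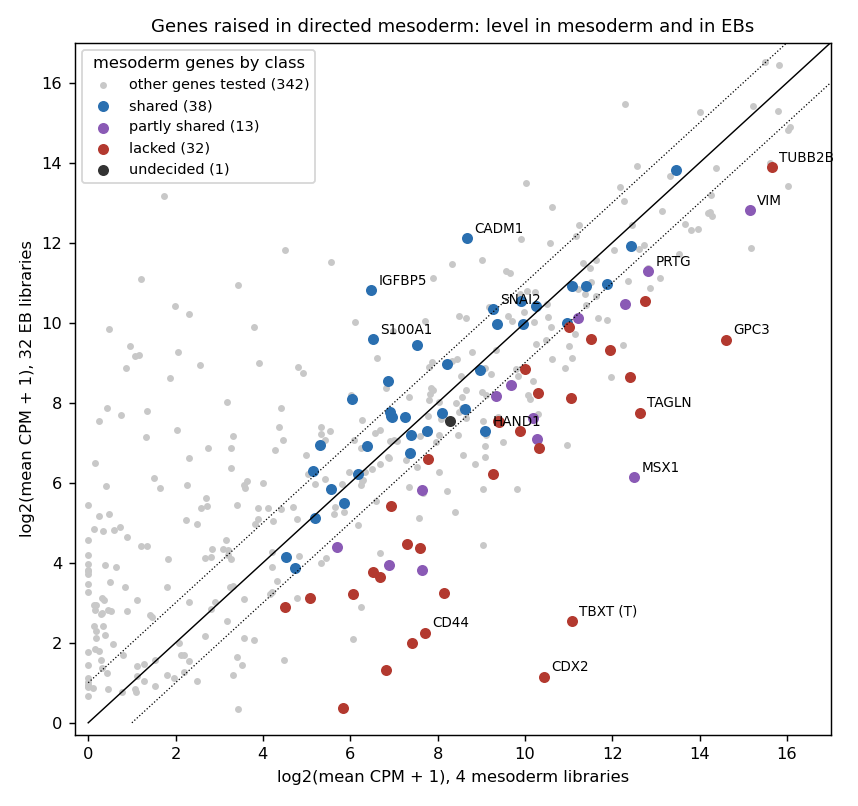
Each point is a tested gene, at its mean level in the 4 mesoderm libraries (horizontal) and in the 32 EB libraries (vertical), both as log2(mean CPM + 1). The solid line marks equal levels and the dotted lines a log2 difference of 1, and colours give the class of the 84 mesoderm genes. CDX2 and TBXT lie farthest under the line, and IGFBP5, CADM1 and S100A1 farthest above it among the shared genes.

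A stricter set of 24 genes was also called higher in mesoderm than in ectoderm and in endoderm, and is called mesoderm-highest here. EBs shared 10 of them, partly shared 6 and lacked 8. The shared genes were SNAI2, CPLX2, PPP1R3C, IFRD1, HAPLN1, ANXA1, CD74, TXNIP, SPON1 and, on all libraries, HAND1. The partly shared genes were MSX1, GAD1, PRTG, VIM, NCAM1 and CDKN1A. The lacked genes were CDX2, MYH6, T, COLEC10, FOXF1, CD44, ALDH1L2 and TUBB2B.

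**Figure D3:**
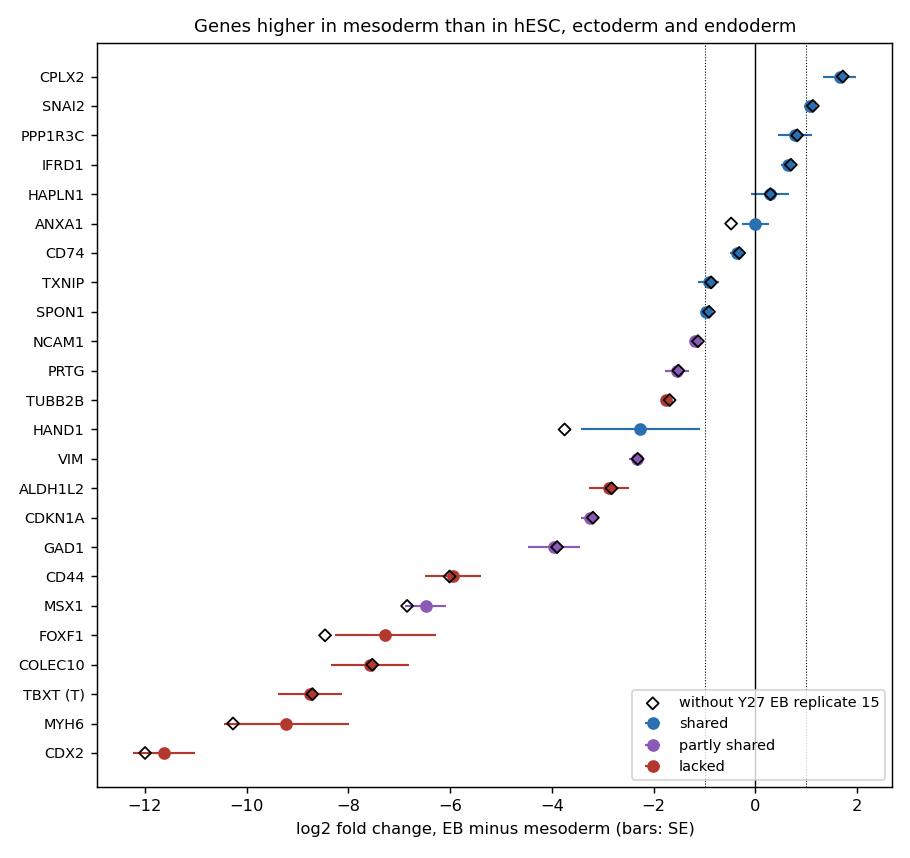
Points give the log2 fold change of EBs minus mesoderm for the 24 mesoderm-highest genes, with bars of 1 SE and colours for the class. Open diamonds give the same without Y27 EB replicate 15, and dotted lines mark -1 and 1. HAND1 moves from -2.26 to -3.75 without that library, while CDX2, MYH6 and TBXT stay at the low end and CPLX2 and SNAI2 at the high end.

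The 5 lacked genes with the largest differences were CDX2, MYH6, T, COLEC10 and FOXF1, of which CDX2 is described above. T (chromosome 6, 166157656 to 166168655) encodes brachyury, the factor that defines the streak. Against the 4 mesoderm values given above, EB libraries ranged from 0 over a median of 2.33 to 28.3 CPM, and 10 of them had no read. The groups did not come near each other, and the difference was -8.75 ± 0.64 (adjusted p = 2.61e-15). Unlike HAND1 and CDX2, T was not highest in Y27 EB replicate 15, which had no T read, and where 3 reads would be 6.37 CPM. Endoderm, which also passes through a streak-like state, held 93.6 CPM.

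FOXF1 (chromosome 16, 86510527 to 86515422), a forkhead factor of the lateral plate and its splanchnic derivatives, measured 182, 181, 142 and 172 CPM in mesoderm. In EBs 24 libraries had no read, and the highest was Y27 EB replicate 15 at 82.9 CPM from 39 reads, with the next at 4.87. All EB libraries were thus under mesoderm, and 1 came nearer than the rest. The difference was -7.27 ± 1.00 with that library and -8.46 ± 0.69 without it.

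MYH6, which encodes a cardiac myosin heavy chain, measured 109, 122, 97.5 and 117 CPM in mesoderm. Only 3 EB libraries had any read, and Y27 EB replicate 15 held 44.6 CPM from 21 reads. The difference was -9.22 ± 1.23, and -10.27 ± 0.75 without it. MYH6 is very similar to its neighbour MYH7, and how far its probes separate the pair is not given in the sources used here. COLEC10, a secreted collectin, averaged 56.1 CPM in mesoderm and had reads in 5 EB libraries, at most 2.66 CPM, with a difference of -7.57 ± 0.76.

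GATA6, a zinc-finger factor of endoderm, heart and lateral plate, measured 107, 123, 131 and 109 CPM in mesoderm and 4463 CPM on average in endoderm. EB libraries ranged from 0 over a median of 7.35 to 151 CPM, the last in Y27 EB replicate 15 from 71 reads. That library lay above mesoderm, and the next EB library stood at 38.8. The difference was -3.13 ± 0.81 with and -3.53 ± 0.69 without it, and GATA6 was partly shared either way.

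**Figure D4:**
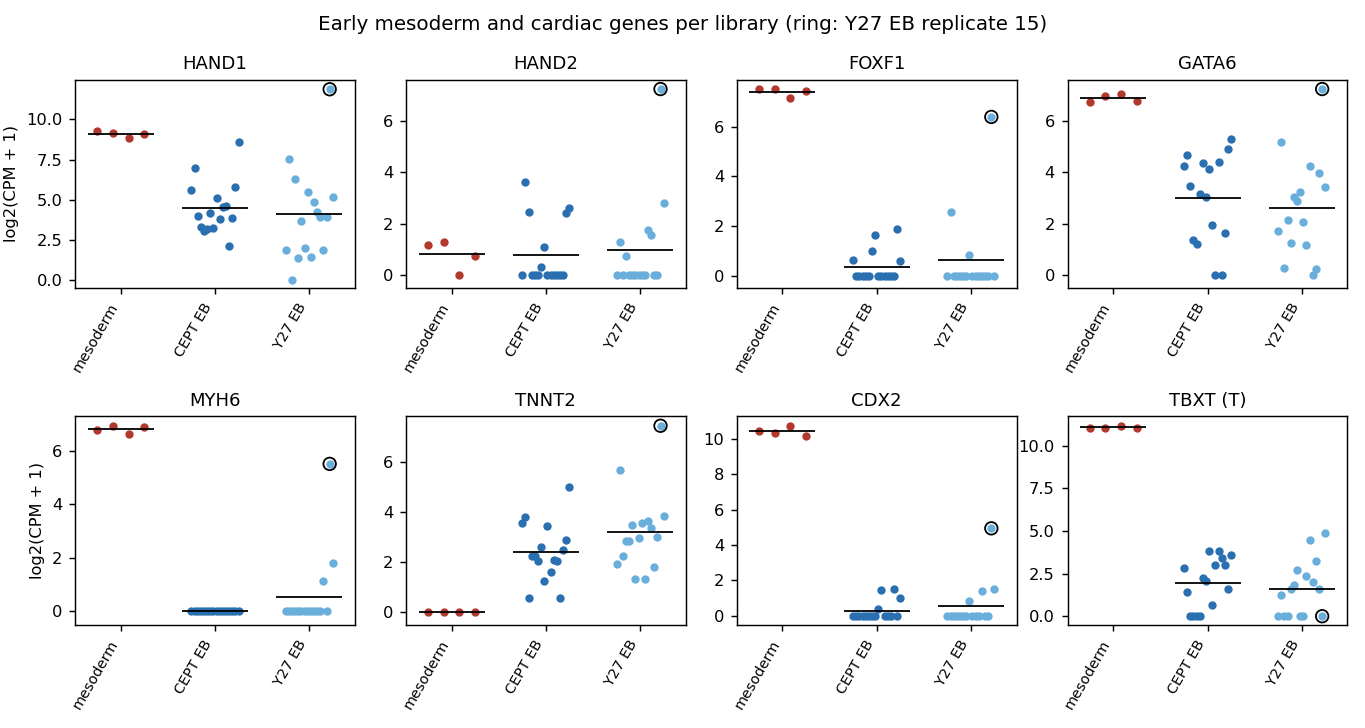
Each point is 1 library, at log2(CPM + 1), in mesoderm and in both EB groups, for 8 genes of early and cardiac mesoderm. Bars are group means and the ring marks Y27 EB replicate 15. That library is the highest EB library in 7 of the 8 panels and is at 0 for TBXT. HAND1, HAND2, FOXF1, GATA6, MYH6 and TNNT2 are among the genes picked for being at least 2 times the next EB library there. Their rank is therefore built in.

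Lists of genes known for mesoderm and its derivatives, on the panel whether or not these cultures raised them, gave mixed counts, to be read against the 33.1% of all tested genes that were higher in EBs and the 26.8% that were lower. Of 9 tested genes of the primitive streak and nascent mesoderm, 4 were lower in EBs (T, CDX2, LHX1 and DLL1), 1 was higher (CYP26A1, which degrades retinoic acid) and 4 were not called (EOMES, PDGFRA, KDR and NODAL). Their median difference was -0.99, beside 0.13 for all tested genes. CYP26A1, though higher in EBs than in mesoderm, was lower in EBs than in hESCs (-2.12 without Y27 EB replicate 15). LHX1, a LIM homeobox factor also found in intermediate mesoderm, averaged 21.6 CPM in mesoderm and 6.4 in EBs, a difference of -1.87 ± 0.47. It was the only panel gene of a list for intermediate mesoderm and kidney. PDGFRA, the receptor of nascent and paraxial mesoderm, averaged 17.6 CPM in mesoderm and 18.2 in EBs, with a difference of 0.05 ± 0.44 that did not pass.

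Among 11 genes of lateral plate, cardiac and allantois mesoderm, 4 were lower in EBs (FOXF1, GATA6, MSX1 and MYH6), 3 higher (ISL1, MEF2C and TNNT2) and 4 not called (HAND1, HAND2, NKX2-5 and NPPB), with a median of -0.29. These shares lie near those of all tested genes. ISL1, a LIM homeobox factor of the second heart field that is also made by sensory and motor neurons, averaged 9.82 CPM in mesoderm and measured 1110 to 2829 CPM in EBs, a difference of 7.65 ± 0.31. TNNT2, cardiac troponin T, had no read in mesoderm and a median of 5.65 CPM in EBs. Y27 EB replicate 15 held 174 CPM of it, against 49.9 in the next library. Over all EBs TNNT2 was at least 10.7-fold above the level of 3 reads per mesoderm library, and at least 6.49-fold without Y27 EB replicate 15. HAND2 averaged 0.852 CPM in mesoderm, was without reads in 20 EB libraries and measured 151 CPM in Y27 EB replicate 15.

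The other mesoderm lists had few genes on the panel. Of 4 blood and endothelium genes, CDH5 (VE-cadherin) was higher in EBs, at 12.8 CPM against no read in mesoderm, and KDR, PECAM1 and SOX7 were not called, with a median of 0.98. Of 2 paraxial genes, PAX3 was higher in EBs, at 942 CPM against 13, and the cartilage collagen gene COL2A1 was not called, with a median of 3.17. PAX3 also marks the dorsal neural tube and the neural crest.

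Of 7 genes of epithelial to mesenchymal transition, 5 were lower (VIM, CDH2, CD44, TAGLN and the epithelial gene EPCAM), SNAI2 was higher and SPARC was not called, with a median of -1.83. VIM, the intermediate filament protein of mesenchyme, measured 35748, 37176, 37270 and 34868 CPM in mesoderm and from 3962 over 6872 to 12920 CPM in EBs. No EB library reached mesoderm, and every EB library lay above hESCs, which averaged 316 CPM. The difference from mesoderm was -2.33 ± 0.15 (adjusted p = 2.27e-17). CDH2 (N-cadherin), averaging 5028 CPM in mesoderm, had a difference of -1.83 ± 0.09.

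CD44, the hyaluronan receptor, measured 260, 229, 117 and 232 CPM in mesoderm, and in EBs from 0 over 2.73 to 19.1 CPM. EBs lay under mesoderm in every library and were not called different from hESCs. The difference was -5.94 ± 0.55. TAGLN, an actin-binding protein of smooth muscle, averaged 6368 CPM in mesoderm and 214 in EBs, a difference of -4.89 ± 0.22, and EBs were also lower than hESCs (-1.27).

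Some lacked genes were high in mesoderm and in ectoderm alike. GPC3, a glypican that binds growth factors, averaged 24914 CPM in mesoderm and 43456 in ectoderm, and in EBs it measured 262 CPM at the lowest, 741 at the median and 1366 at the highest. No EB library came near mesoderm, and the difference was -5.02 ± 0.16. Against hESCs, which averaged 1601 CPM, it was -0.99, short of a call. PRSS23, a secreted serine protease, averaged 283 CPM in mesoderm, 832 in ectoderm and 8.54 in EBs, a difference of -5.21 ± 0.48. CRB2, a polarity gene needed as cells leave the streak, averaged 32.5, 82.1 and 7.69 CPM in the same order, a difference from mesoderm of -2.17 ± 0.60, or -2.41 without Y27 EB replicate 15, which held 61.6 CPM. PALLD, an actin crosslinker, averaged 193, 237 and 19.6 CPM (-3.33 ± 0.24).

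TUBB2B, a neural beta-tubulin, averaged 51588 CPM in mesoderm, 15210 in EBs and 15665 in hESCs. The difference of EBs was -1.75 ± 0.11 from mesoderm and 0.05, not called, from hESCs. Reads of its close copy TUBB2A may not be separable. ALDH1L2, a mitochondrial folate enzyme, was lower in EBs than in mesoderm (-2.88 ± 0.38) and than in hESCs (-1.42).

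Among the other 18 lacked genes, in order of their difference from mesoderm, were ODC1, GDF15, INPP5D, SLC7A5, FBN1, SERPINE2, DIAPH2, GJA1, TNFRSF10B, SCRN1, BBS9, HSPA5, DMRTA1, DNAJC3, SDC2 and LAMB1. The 18 genes ran from -3.79 for ODC1, the first enzyme of polyamine synthesis, to -1.10 for LAMB1, a laminin chain. GDF15 and INPP5D differed between the arms. Without Y27 EB replicate 15, GDF15 averaged 131 CPM in CEPT EBs and 15.6 in Y27 EBs, and its highest EB library held 914 CPM. INPP5D averaged 19.1 and 3.80 CPM. Of all lacked genes, with every library in, 7 were higher in CEPT EBs and 3 lower. ODC1 measured 5290 to 5652 CPM in mesoderm and 237 to 564 in EBs. LAMB1 and SDC2 lay nearest to the call threshold. LAMB1 fell in no class when any 1 mesoderm library was left out, and SDC2 without mesoderm replicate 1, 2 or 4.

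Partly shared genes were those that EBs had raised above hESCs without reaching mesoderm. PRTG (protogenin), a receptor-like protein of the early paraxial mesoderm and neural plate, measured 6398, 7640, 7323 and 7508 CPM in mesoderm and from 1136 over 2043 to 5263 CPM in EBs. No EB library overlapped mesoderm, while hESCs averaged 28 CPM. The difference was -1.54 ± 0.23 from mesoderm and 6.55 from hESCs. WLS, which carries WNT ligands to the cell surface, averaged 1168 CPM in mesoderm, 195 in EBs and 5.49 in hESCs, a difference from mesoderm of -2.58 ± 0.13.

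GAD1, which makes the transmitter GABA, is a neural gene and was mesoderm-highest here, with 200, 183, 205 and 205 CPM in mesoderm and 7.35 in ectoderm. EBs ranged from 0 over 9.56 to 52.2 CPM, under every mesoderm library, with a difference of -3.96 ± 0.51. CDKN1A (p21), the p53-induced inhibitor of the cell cycle, averaged 1247 CPM in mesoderm, 135 in EBs and 62.7 in hESCs, a difference from mesoderm of -3.25 ± 0.18. Its rise over hESCs (1.13) lay near the call threshold, and with median-ratio or upper-quartile factors, DESeq2, all 48 libraries in a single fit or Y27 EBs alone CDKN1A was lacked. CDH2 was lacked with the first 3 of these. NCAM1, a cell adhesion gene, averaged 648 CPM in mesoderm and 286 in EBs. Its difference of -1.18 ± 0.11 lay near the call threshold and came to between -0.72 and -0.99 under 9 other settings, among them leaving out mesoderm replicate 2, 3 or 4. EPHA4 (-1.83), CDH2, IL6ST (-1.38), DLL1 (-1.24) and GADD45A (-1.09) make up the rest of the class.

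Shared genes were led by factors that EBs had raised from near 0. GREB1L, a developmental gene needed for the kidney and the inner ear, measured 168, 192, 202 and 176 CPM in mesoderm, and from 420 over 676 to 1134 CPM in EBs. All EB libraries lay above mesoderm, with a difference of 1.91 ± 0.16 (adjusted p = 7.66e-14). DACH1, a transcription factor of limb, eye and kidney, averaged 64.7 CPM in mesoderm and 271 in EBs, a difference of 2.07 ± 0.25, again without overlap. Both were also present in ectoderm, at 464 and 713 CPM.

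ZBTB16 (PLZF), a zinc-finger repressor of limb and skeletal patterning, measured 77.5, 63.9, 71.5 and 70.6 CPM in mesoderm and from 28.3 over 69.6 to 147 CPM in EBs. The EB values lay around those of mesoderm on both sides. The difference was 0.06 ± 0.30, which spans from lower to higher levels within 1 SE. COL2A1, type II collagen of cartilage and notochord, averaged 1213 CPM in mesoderm and 1367 in EBs, a difference of 0.18 ± 0.13 that did not pass.

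HAPLN1, which links hyaluronan to proteoglycans, averaged 46.3 CPM in mesoderm and 56.7 in EBs, with a difference of 0.28 ± 0.38. SPON1 (F-spondin), a secreted matrix protein, measured 1990, 2008, 1989 and 2017 CPM in mesoderm and 583 to 1395 in EBs. Its ranges did not overlap, and the difference of -0.97 ± 0.11 stopped just short of a log2 difference of 1. In the CEPT EBs alone it was -1.05 and called. TXNIP, an inhibitor of thioredoxin that responds to glucose, averaged 3756 CPM in mesoderm and 1987 in EBs, a difference of -0.92 ± 0.20.

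ANXA1, a phospholipid-binding annexin, spread widely among EB libraries. It measured 176, 161, 129 and 145 CPM in mesoderm, and from 5.25 over 87.3 to 1132 CPM in EBs. EB libraries lay on both sides of mesoderm, 14 of them above its lowest library, and the fitted difference was close to 0 (adjusted p = 1). CEPT EBs had a median of 200.4 CPM and Y27 EBs of 30.0 CPM, a difference of 2.15 ± 0.55 between the arms (adjusted p = 0.0033), or 3.25 ± 0.43 without Y27 EB replicate 15.

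In 9 of the 38 shared genes EBs were called above mesoderm: IGFBP5 (4.35 ± 0.30), CADM1 (3.44 ± 0.21), S100A1 (3.10 ± 0.21), DACH1, GREB1L, RPS21 (1.67 ± 0.56), CPLX2 (1.65 ± 0.33), FAS (1.15 ± 0.24) and SNAI2. IGFBP5, a secreted binder of insulin-like growth factors, measured 51.0 to 107 CPM in mesoderm and 773 to 3035 in EBs. CPLX2, a complexin of synaptic release, was mesoderm-highest among the control cultures at 38.7 CPM and averaged 121 CPM in EBs. RPS21, a ribosomal protein, had uneven mesoderm libraries, with 242 CPM in replicate 3 and 67.5 to 78.8 in the others, and without replicate 3 it was no longer a mesoderm gene. The 4 mesoderm-highest genes PPP1R3C (0.77 ± 0.33), IFRD1 (0.63 ± 0.14), CD74 (-0.37 ± 0.13) and HAPLN1 stayed within a log2 difference of 1. With library totals as the scaling, PPP1R3C reached 1.22 and IFRD1 1.06 and both were called.

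The remaining shared genes were not called against mesoderm and ran from -1.04 for KLF5 to 0.88 for WWTR1. They were KLF5, SPARC, ATF6, S100A10, CCNI, ZNF521, IGFBP7, CNTNAP1, DDIT3, ROR2, MAP1B, PDGFRB, BTG2, TMSB10, CPS1, SOX11, COL11A1, HES4 and WWTR1. A missed call does not show that levels were equal: the SE of KLF5 was 0.61 and that of IGFBP7 was 0.54. Other genes differed by edgeR's quasi-likelihood test and missed only the log2 cutoff of 1. Without Y27 EB replicate 15 these included WWTR1 (0.93, adjusted p = 4.80e-08), HES4 (0.81, adjusted p = 0.000229) and ATF6 (-0.57, adjusted p = 0.000896). PDGFRB, a receptor of mesenchyme and pericytes, averaged 35.5 CPM in mesoderm and 33.6 in EBs (-0.09 ± 0.25). DDIT3, a stress-response factor, averaged 499 and 453 CPM (-0.20 ± 0.31).

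Probes of a gene mostly moved in the same direction. Among genes with more than 1 tested probe pair, all pairs had the same direction in 29 of 36 shared, 12 of 13 partly shared and 28 of 29 lacked genes. Sizes could still differ. Pairs ran from -2.30 to -0.75 in VIM, from -1.74 to -0.85 in TUBB2B and from -1.71 to -0.13 in HSPA5. In SNAI2 they ran only from 1.39 to 1.47. Summed values follow the pairs with the most reads. In CCNI, CD74 and BBS9, pairs in opposite directions each had an adjusted p under 0.05, though no pair that was higher in EBs reached a log2 difference of 1. The summed values of these genes are uncertain.

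Markers of other cell types also differed between the cultures. Of all tested genes, 33.1% were higher in EBs and 26.8% lower, with a median of 0.13. Of 11 neural crest genes tested, 7 were higher in EBs than in mesoderm (among them SNAI2, SOX10, FOXD3, PAX3, ETS1 and NGFR), 3 lower (among them MSX1 and ZIC1) and 1 not called, with a median of 4.93. SOX10, the crest factor that glia and pigment cells keep, measured 829 to 2156 CPM in EBs and 0.726 to 4.5 CPM in mesoderm, a difference of 8.87 ± 0.34. FOXD3 measured 470 to 896 CPM in EBs and at most 2.08 in mesoderm. It was also expressed in hESCs. Without Y27 EB replicate 15, EBs exceeded hESCs by 1.49 in FOXD3 and by 8.51 in SOX10 on the log2 scale. SNAI2 is a member of this list, of the mesenchyme list and of the shared mesoderm genes, and how far crest cells contribute to its EB level was not tested.

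Of 33 neural genes, 24 were higher in EBs, 5 lower and 4 not called, with a median of 4.74. SST, the neuropeptide somatostatin, measured 2.11, 2.18, 1.5 and 3.46 CPM in mesoderm and from 4375 over 8279 to 18554 CPM in EBs, a difference of 11.89 ± 0.48. NEUROD1, a factor of neuronal differentiation, averaged 1.31 CPM in mesoderm and measured 1174 to 3299 in EBs (10.66 ± 0.33). NR2F1, an orphan nuclear receptor of the developing brain, had at most 3 reads in a mesoderm library and 530 to 1322 CPM in EBs. The neural genes lower in EBs were NKX2-2, NCAM1, GAD1, GBX2 and ZIC1.

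The other genes with the largest differences toward EBs were SLC17A6, OLIG1, IDO1, ELAVL3, HHATL, WNT1, S100B and OLFM3, beside SST, NR2F1, NEUROD1 and FOXD3 above. SLC17A6, the vesicular glutamate transporter of excitatory neurons, had no mesoderm read and was at least 34.6-fold above 3 reads per library. IDO1, which degrades tryptophan, and WNT1, a dorsal midbrain signal, also had no mesoderm read and were at least 18.5-fold and 14.2-fold higher, though each had no read in 2 EB libraries. IDO1 was higher still in hESCs, at 130 CPM against 22.6 in EBs. Without Y27 EB replicate 15, EBs exceeded hESCs by only 1.61 in OLIG1 and 1.49 in FOXD3. In the other genes of this set, IDO1 aside, that difference was 3.60 or more. S100B and ELAVL3, of glia and neurons, averaged 465 and 231 CPM in EBs and under 1 CPM in mesoderm. Among the 12 largest differences toward mesoderm, 2 genes were not raised over hESCs there: EFEMP1 (-4.66 ± 0.35) and PPP1R1B (-4.34 ± 0.65), which averaged 606 and 243 CPM in hESCs.

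Signalling, endoderm, pluripotency and trophoblast lists gave mixed counts, to be read against 33.1% higher and 26.8% lower among all tested genes. The shares of the signalling, endoderm and trophoblast lists lay near these. Of 13 genes of BMP, WNT, Nodal and FGF signalling, 5 were higher in EBs (WNT1, FRZB, FZD5, LEFTY1 and GDF3), 3 lower (ID1, DUSP6 and SPRY2) and 5 not called, with a median of 1.45. ID1 is a direct target of BMP, and DUSP6 and SPRY2 are feedback inhibitors of FGF signalling. FRZB, a secreted WNT antagonist, averaged 20.4 CPM in mesoderm and 234 in EBs (3.52 ± 0.39, and 3.42 without Y27 EB replicate 15). Without that library, LEFTY1 (-3.12) and GDF3 (-3.72) were lower in EBs than in hESCs. WNT1 (9.23) and FRZB (2.86) were higher than in hESCs.

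Of 9 endoderm genes, SOX17 and LEFTY1 were higher, GATA6 and CDX2 lower and 5 not called, with a median of -0.61. Of 20 pluripotency genes, 5 were higher (NANOG, SOX2, DPPA4, GDF3 and LEFTY1), 3 lower (among them SALL4 and CD9) and 12 not called, with a median of -0.04. NANOG averaged 41.7 CPM in EBs, 5.59 in mesoderm and 1959 in hESCs, and SOX2, which neural cells keep, averaged 615, 3.16 and 1119. Of 6 trophoblast and amnion genes, ISL1 and IGFBP5 were higher, CDX2 and KRT18 lower, and EOMES and HAND1 not called, with a median of -1.62. KRT18, an epithelial keratin, averaged 1998 CPM in mesoderm and 122 in EBs (-4.06 ± 0.38).

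**Figure D5:**
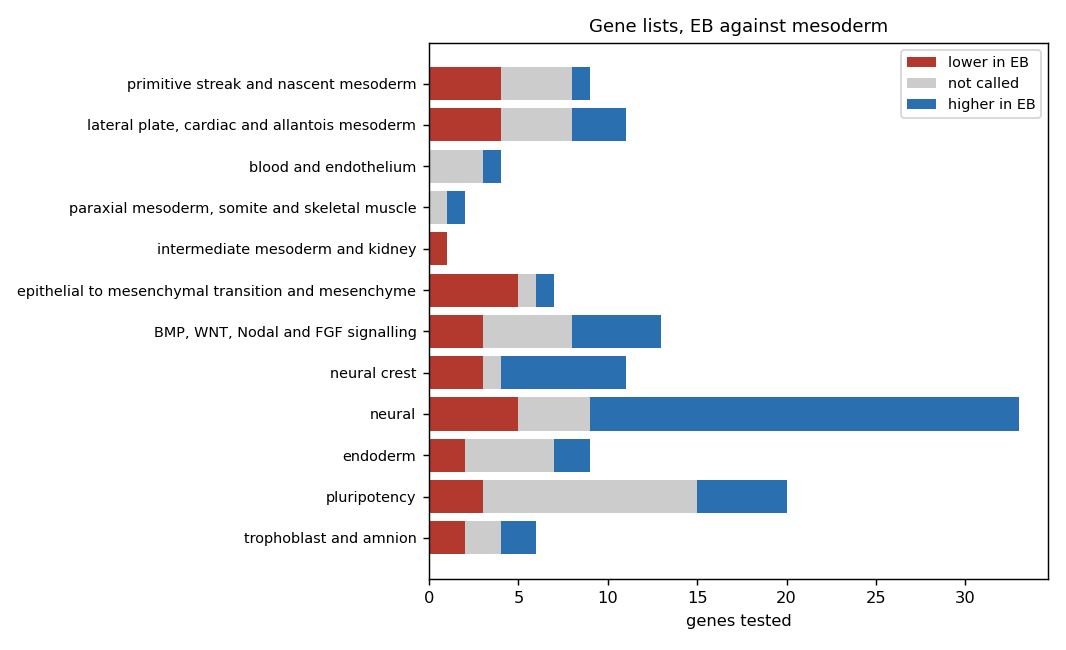
Bars count the tested genes of each list (horizontal axis) that were lower in EBs than in mesoderm, not called, or higher in EBs. The neural list has 24 of 33 genes higher in EBs, and the list of epithelial to mesenchymal transition has 5 of 7 lower. Of all tested genes, 33.1% were higher and 26.8% lower.

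The arms of the study differed in some of these genes, tested as CEPT EBs against Y27 EBs in the same fit, with an adjusted p-value under 0.05 as the only condition: 118 of 426 genes (27.7%). Among the 84 mesoderm genes 30 differed, 15 of the 38 shared, 5 of the 13 partly shared and 10 of the 32 lacked. MSX1 (-0.60 ± 0.39), HAND1 (-2.31 ± 0.99), CDX2 (-0.67 ± 0.97) and T (-0.10 ± 0.65) were not called between the arms. The sign of the first 3 turned without Y27 EB replicate 15, to 0.25 ± 0.20 for MSX1, 0.76 ± 0.68 for HAND1 and 0.21 ± 0.80 for CDX2, none of them called. SNAI2 was lower in CEPT EBs, with a mean of 1171 ± 169 CPM (SD, n = 16) against 1419 ± 190, a log2 difference of -0.29 (adjusted p = 0.00249), and both arms were above mesoderm. Called separately against mesoderm, CEPT EBs shared 36 genes, partly shared 16 and lacked 30, and Y27 EBs shared 39, partly shared 10 and lacked 33. The difference between these counts was not tested.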

How the data were processed

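RASL-Seq libraries were made from oligo-dT-captured RNA by annealing and ligating probe pairs and amplifying them with barcoded primers, per the labels' protocols. The files hold raw read counts per probe pair, which the authors deposited after their own probe alignment. The submitters' processing notes name hg38 and DESeq2, with no role given. The labels mention no molecular identifiers, so reads are not independent molecules. The merged table of counts repeats the 48 sample files, and 16 of its columns matched no sample and were not used.

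Counts were summed over the probes of each gene, and 10 older symbols were renamed through their transcripts. Genes were filtered with filterByExpr, scaled with TMM and tested with edgeR 4.0.16 (robust quasi-likelihood) in R 4.3.3, with Benjamini-Hochberg adjustment over all genes tested. EBs entered as the mean of both arms. EB contrasts used the 36 libraries of the groups compared, and mesoderm was set against hESC, ectoderm and endoderm in the 16 control libraries. A call needed an adjusted p under 0.05 and a log2 difference of at least 1. The SE was computed from the log2 difference and the F statistic. Where a group had no read, a fold was computed against 3 reads per library, which covers counting error only. The scripts were tested on simulated data. Figures were drawn with matplotlib 3.10.9.

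Libraries were grouped by their labels. Values were named for the 4 markers, for every mesoderm-highest gene, for up to 10 genes per class with the largest rise from hESC to mesoderm, for the 12 largest called differences each way with a mean of at least 50 reads, and for up to 4 called genes per list. Other genes named with values were chosen after their values were seen. Some genes counted in the classes and lists are not reported here by name. The members and lists were chosen with earlier results of these data known. Alternatives were DESeq2 1.42.0, other scalings, filters and thresholds, 1 probe per gene, all 48 libraries in a single fit, each arm alone, the replicate number as a block and leaving out libraries. Testing each probe pair separately was added after seeing the data.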

Additional observations from a re-analysis of the deposited data

Results flagged for a closer look

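Among 56 genes checked in the 4 mesoderm libraries, 1 library lay far from the others, by Dixon's criterion, in 4 genes (7.14%). Chance alone gives this in about 1 in 20 groups. They were CD74 in mesoderm replicate 2 (295 CPM), and T (2290), TUBB2B (40750) and CRB2 (51.5) in mesoderm replicate 3.

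Since both arms were compared with the same mesoderm libraries, a difference between the arms is also the difference between their distances from mesoderm. By edgeR's quasi-likelihood test 20 of the 68 named genes differed, 9 higher in CEPT EBs and 11 lower, beside 27.7% of all genes tested. The higher genes were ANXA1 (2.15), PRSS23 (1.33), LHX1 (1.15), SLC17A6 (0.99), S100B (0.80), CDKN1A (0.75), SST (0.54), IFRD1 (0.49) and PRTG (0.48 on the log2 scale, CEPT EBs minus Y27 EBs).

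The lower genes were MYH6 (-5.21), CD74 (-0.42), SOX10 (-0.41), NEUROD1 (-0.38), PAX3 (-0.38), SPON1 (-0.33), GREB1L (-0.32), NGFR (-0.30), SNAI2 (-0.29), FOXD3 (-0.29) and CDH2 (-0.19). The MYH6 value rests on Y27 EB replicate 15, which held 21 reads, while all 16 CEPT EB libraries held none. Without that library MYH6 (adjusted p = 0.0544) and CDH2 (adjusted p = 0.0884) did not pass between the arms, and ANXA1 came to 3.25.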

How the results depend on the processing

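The 68 named genes were followed in EBs against mesoderm under the 23 alternatives, except those that left out an hESC library, which that comparison does not use. Of 1256 values, 1203 kept direction and call and 18 differed in sign without a call in either. The call was lost in 24 and gained in 11, and none that was called changed sign. With at least 10 reads required in every library, the genes called were 145 for EBs against mesoderm (82 higher and 63 lower in EBs), 99 for mesoderm against hESCs and 150 for EBs against hESCs. That filter left 53 mesoderm genes, of which 8 were mesoderm-highest, 27 shared, 5 partly shared and 14 lacked, because genes near 0 in EBs, CDX2 and T among them, were not tested. With a log2 difference of at least 2 required, 163 genes were called for EBs against mesoderm, 57 of them lower in EBs, and 173 for EBs against hESCs. Of 52 mesoderm genes left, 26 were shared, 5 partly shared and 16 lacked. Leaving out single libraries gave 241 to 258 genes called against mesoderm, 33 to 40 shared, 11 to 14 partly shared and 28 to 32 lacked. No setting moved a gene from lacked to shared, and the reverse held for SPARC (CEPT EBs alone) and KLF5 (Y27 EBs alone). CDKN1A moved from partly shared to lacked with the replicate block and under the settings given beside it in the results. DLL1, GADD45A and NCAM1 moved to shared with 1 probe per gene, library totals, the filter of 10 reads and all 48 libraries in a single fit. GADD45A also did so with upper-quartile factors, no filter, CEPT EBs alone and without any 1 mesoderm library. DLL1 also did so with Y27 EBs alone, and NCAM1 under the other settings counted beside it in the results. With the replicate block 258 genes were called, with 36 shared, 15 partly shared and 33 lacked genes. In that replicate block HAND1 (-4.25) and SPON1 (-1.01) were called, while GDF3 (2.52) and LEFTY1 (3.14) were not. Mesoderm and hESC libraries are numbered only 1 to 4. The block thus sets them mainly against EB libraries of the same numbers, and Y27 EB replicate 15 hardly enters. These values therefore differ from the main ones in the libraries used as well as in the model. Deviations of same-numbered EB and mesoderm libraries had correlations of -0.04 to 0.11, over 4 pairs per arm. Those of same-numbered CEPT and Y27 EB libraries ran from -0.35 to 0.32 over 16 pairs. So few pairs cannot show whether a number stands for anything shared. SOX17 lost its call in the Y27 EBs alone (3.59), CRB2 with 1 probe per gene (-1.39) and IL6ST with library totals (-0.93). Depth limits genes with few reads: 3 reads in Y27 EB replicate 15 are 6.37 CPM.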
